A study of Mus musculus with 15 samples.

Results

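The genes described here encode the nuclear-encoded subunits of the mitochondrial respiratory chain and of ATP synthase. They were chosen by symbol: those beginning Ndufa, Ndufb, Ndufc, Ndufs or Ndufv, Sdha to Sdhd, Uqcr, Cox4 to Cox8, and Atp5, with assembly factors and pseudogenes left out. The rule took 82 of the 19937 genes measured, 36 with complex I symbols, 4 of complex II, 8 of complex III, 17 of complex IV and 17 of complex V. Of these, 74 are common subunits and 8 are isoforms known to be restricted to some tissues or to low oxygen. Other coding genes that fit the rule were not analysed here. Each gene was read by its brightest probe set, and no member was dropped for low signal.

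The study read whole-transcript arrays in 4T1, a metastatic mammary carcinoma line of the mouse, with 3 arrays for each of 5 lines. All derived lines rest on Tw1KD cells, in which endogenous Twist1, a basic helix-loop-helix transcription factor, was depleted. Tw1KD cells were given Twist1 S42D, Twist1 S42A or wild-type Twist1 to make the S42D, S42A and wild-type Twist1 lines, and parental 4T1 cells were the starting point. S42A and S42D replace serine 42 by alanine, which cannot be phosphorylated, and by aspartate, which resembles phosphoserine in charge. For S42D the genotype entry lists both substitutions, and the group was taken from the sample title. Per the labels' protocols, cells were harvested at 70% confluency under selection with puromycin (4 µg/ml) and G418 (800 µg/ml), and 100 ng of total RNA entered the labelling. The labels do not say whether a line was a clone or a pool, nor whether the 3 arrays of a line came from separate cultures. A p-value here therefore reflects only the spread between these arrays, which may be technical.

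The respiratory chain sits in the inner mitochondrial membrane. Complex I takes electrons from NADH and complex II takes them from succinate, both pass them to ubiquinone, complex III hands them on to cytochrome c, and complex IV reduces oxygen. Complexes I, III and IV pump protons, and complex V, the ATP synthase, lets the protons flow back and makes ATP. Most subunits are encoded in the nucleus and imported, a core set is encoded by mitochondrial DNA, and tumour cells differ widely in how far they use this route beside glycolysis. The nuclear genes are known targets of NRF1, ETS-family factors such as GABP, and YY1, and of coactivators of the PGC-1 family that work through such factors.

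Promoter sequence was read for 67 of the 82 genes from RefSeq in build GRCm38.p6, from 250 bases before to 50 bases after the gene's start. Both strands of each 300-base window were searched for GCGCATGC (an NRF1 motif), CCGGAAG (an ETS motif) and AAGATGGCG (a YY1 motif). A run of GCGCATGCGC holds the NRF1 letters once on each strand, the matches overlapping. The NRF1 letters were in 10 of the 67 promoters (14.9%), against 2.80% of the 27025 promoters searched. The ETS letters were in 16 (23.9%, against 9.12%) and the YY1 letters in 6 (8.96%, against 1.49%). Of the 45 matched genes that rose in the S42A line over Tw1KD cells, 8, 13 and 4 held the NRF1, ETS and YY1 letters. Of the other 22, the corresponding numbers were 2, 3 and 2. Some of these matches lie in genes that fell in the S42A line. Ndufa6 and Atp5g2, which fell, hold the NRF1 letters, and Ndufs4, which also fell, holds the YY1 letters. A match is a description of the letters and not a bound site, and the part of base composition in these shares was not tested. Sequences are shown 5′ to 3′ for 4 genes with matches that rose in the S42A line, and for Cox7a2l, which fell there and whose window holds none of the letters. Capitals mark the matches.
Atp5k (chr5:108434350-108434649, minus strand): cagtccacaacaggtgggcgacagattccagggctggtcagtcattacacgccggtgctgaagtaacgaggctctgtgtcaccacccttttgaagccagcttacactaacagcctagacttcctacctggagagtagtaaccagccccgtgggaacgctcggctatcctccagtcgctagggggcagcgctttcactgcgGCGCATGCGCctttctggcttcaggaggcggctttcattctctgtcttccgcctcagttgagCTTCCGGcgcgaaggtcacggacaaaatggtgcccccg
Cox6a1 (chr5:115348909-115349208, minus strand): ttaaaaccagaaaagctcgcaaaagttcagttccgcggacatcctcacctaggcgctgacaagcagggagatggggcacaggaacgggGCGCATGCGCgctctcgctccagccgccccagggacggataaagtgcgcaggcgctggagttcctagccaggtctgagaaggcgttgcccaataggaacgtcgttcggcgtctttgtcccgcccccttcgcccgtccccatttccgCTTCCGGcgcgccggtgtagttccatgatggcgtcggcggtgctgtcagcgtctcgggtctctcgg
Uqcr11 (chr10:80406772-80407071, minus strand): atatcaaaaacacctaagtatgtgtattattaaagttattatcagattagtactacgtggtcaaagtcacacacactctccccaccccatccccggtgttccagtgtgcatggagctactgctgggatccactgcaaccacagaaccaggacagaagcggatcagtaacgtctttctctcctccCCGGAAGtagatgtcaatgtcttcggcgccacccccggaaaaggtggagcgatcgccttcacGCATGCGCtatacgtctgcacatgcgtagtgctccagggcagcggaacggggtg
Ndufc1 (chr3:51408906-51409205, minus strand): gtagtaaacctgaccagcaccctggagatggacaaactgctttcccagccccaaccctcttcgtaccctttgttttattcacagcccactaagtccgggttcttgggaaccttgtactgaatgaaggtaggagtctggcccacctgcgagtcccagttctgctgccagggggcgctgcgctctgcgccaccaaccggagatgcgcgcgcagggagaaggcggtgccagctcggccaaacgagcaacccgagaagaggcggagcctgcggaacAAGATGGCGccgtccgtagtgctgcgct
Cox7a2l (chr17:83514284-83514583, minus strand): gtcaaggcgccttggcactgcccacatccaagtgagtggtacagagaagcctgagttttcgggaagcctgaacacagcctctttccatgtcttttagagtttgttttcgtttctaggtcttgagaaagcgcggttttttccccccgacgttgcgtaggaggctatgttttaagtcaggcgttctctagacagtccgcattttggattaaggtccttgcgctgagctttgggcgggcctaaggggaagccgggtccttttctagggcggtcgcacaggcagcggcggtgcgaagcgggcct
Atp5k and Cox6a1 each carry the overlapping NRF1 run and a CTTCCGG, the ETS letters on the other strand. Uqcr11 carries single matches to the NRF1 and ETS letters, and Ndufc1 a YY1 match just after its start. The windows of Ndufa4, Ndufa1, Atp5g3 and Atp5o, described below, hold none of these letters, which says only that the letters are not in those windows.

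The deposited values are log2 intensities, so a difference of 1 is a 2-fold change. Probe sets differ in brightness for reasons of sequence, so values are compared between lines and never between genes. Twist1 itself read 9.07, 8.96 and 8.97 in S42D cells, 8.60, 8.71 and 8.80 in S42A cells, 8.35, 8.49 and 8.16 in wild-type Twist1 cells, 7.47, 7.23 and 7.35 in Tw1KD cells and 9.01, 9.03 and 9.07 in parental cells, so the Tw1KD arrays were below all others and the other lines did not all reach the parental level. Whether its probe set reads the introduced forms was not analysed here. Arrays of 1 line correlated at 0.997 to 0.999 over all genes and arrays of different lines at 0.975 to 0.987, so the lines are well separated. The median standard deviation within a line was 0.045 for the subunit genes and 0.066 for all genes. Of 7 epithelial markers, Krt8 and Krt18 were bright in every line, while the summed linear signal of the list was 19133 to 19654 in the S42D line, 16513 to 16697 in the S42A line, 16895 to 17394 in the wild-type Twist1 line, 29142 to 30450 in Tw1KD cells and 21253 to 22430 in parental cells. Epcam and Cdh1, the defining epithelial markers, had means of 5.55 and 6.34 in the S42A line, against 9.76 and 11.46 in Tw1KD cells. Sums over the 6 measured leukocyte markers (233 to 307), 6 muscle markers (501 to 905) and 5 sperm markers (312 to 378) stayed low in all lines. The sum over 5 endothelial markers was 1749 to 1799 in the S42D line, through Cdh5 alone, and 183 to 312 elsewhere. The sum over 6 fibroblast markers was 4400 to 4711 in the S42D line, 2321 to 2412 in the S42A line, 1490 to 1544 in the wild-type Twist1 line, 1210 to 1309 in Tw1KD cells and 3220 to 3398 in parental cells. That sum moved mainly through Pdgfra (line means 9.60 to 11.38) and Pdgfrb (6.36 to 10.55). Line means of Col1a1 (7.31 to 7.71), Col1a2 (7.12 to 7.42) and Lum (3.66 to 3.74) changed little, and Dcn ran from 5.40 to 6.24. The part of these differences in the subunit results was not tested, and in bulk RNA fewer cells of a type and less RNA per cell cannot be told apart.

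The subunit genes stood highest in the S42A line. The median over the 82 genes was 10.90, 10.79 and 10.91 on the S42D arrays, 11.04, 11.10 and 11.16 on the S42A arrays, 10.83, 10.86 and 10.84 on the wild-type Twist1 arrays, 10.69, 10.65 and 10.66 on the Tw1KD arrays and 10.76, 10.69 and 10.75 on the parental arrays. Every S42A array lay above the 12 other arrays. Over the 74 common subunits the median was 11.13, 11.11 and 11.15 on the S42D arrays, 11.21, 11.16 and 11.27 on the S42A arrays, 10.99, 11.08 and 11.01 on the wild-type Twist1 arrays, 11.04, 11.00 and 10.96 on the Tw1KD arrays and 10.85, 10.87 and 10.92 on the parental arrays. The S42A arrays were again highest, by a small margin over S42D, while the lowest line was Tw1KD over all 82 genes and parental over the common subunits. The median over all genes moved much less, between 7.19 and 7.31, though a change common to all transcripts would not show in these values. Of the 82 genes, 47 (57.3%) had their highest line mean in the S42A line, against 18.4% of all genes, and 2 (2.44%) had their lowest there, against 13.1% of all genes. The lowest mean fell in Tw1KD cells for 30 subunit genes (36.6%), against 16.9% of all genes. For 32 subunit genes (39.0%) all 3 S42A arrays exceeded the 12 others, against 6.10% of all genes. These 32 were 19 with complex I symbols, 2 of complex II (Sdha and Sdhd), Uqcrc1 of complex III, 4 of complex IV (Cox5a, Cox6a1, Cox6b1 and Cox7b) and 6 of complex V.

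**Figure D1:**
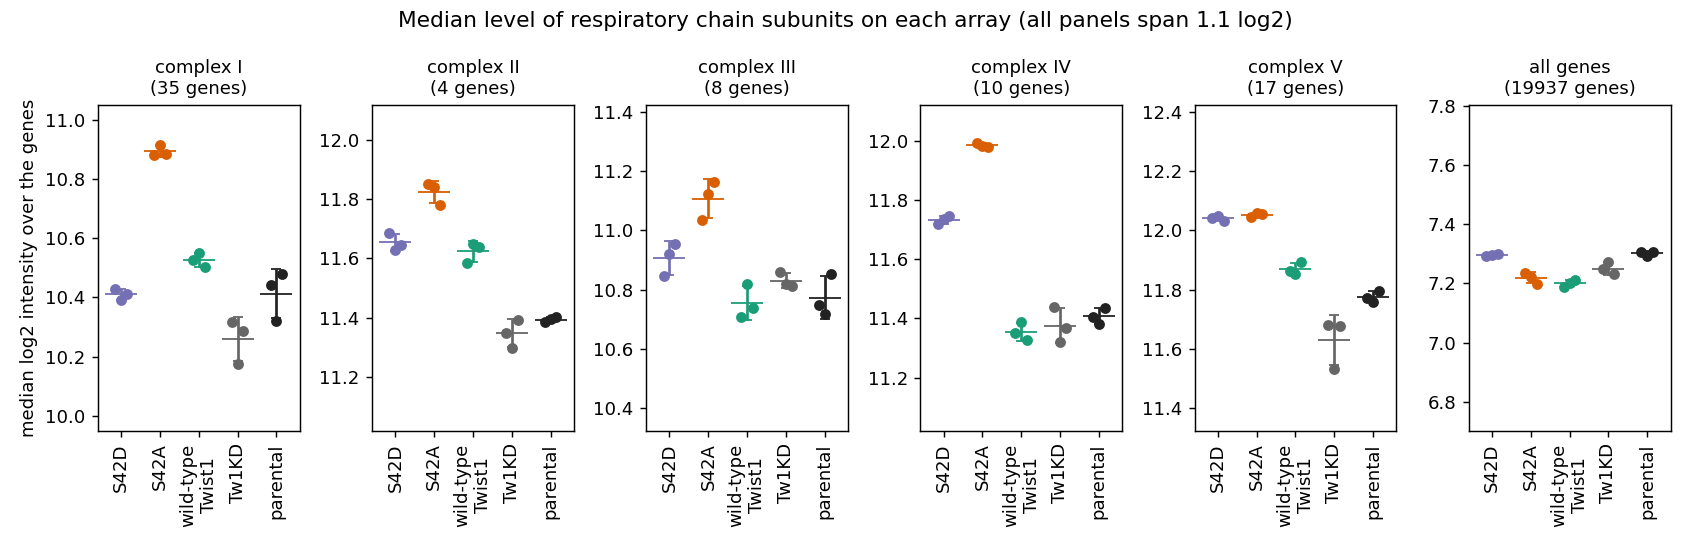
Median log2 intensity over the common subunits of each complex, and over all genes, on each array (points), with the mean and standard deviation of the 3 arrays (bar and whiskers). The S42A arrays lie above those of all other lines for complexes I to IV, and in complex V the S42A medians (12.04 to 12.06) overlap the S42D medians (12.03 to 12.05).

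By complex, the common subunits did not follow a single order of lines. In complex I (35 genes) the array medians averaged 10.41 ± 0.019 (SD, n = 3) in the S42D line, 10.89 ± 0.019 in the S42A line, 10.53 ± 0.024 in the wild-type Twist1 line, 10.26 ± 0.075 in Tw1KD cells and 10.41 ± 0.083 in parental cells. The S42A line stood alone at the top, and S42D and parental cells did not differ beyond their spread. In complex IV (10 genes) the averages were 11.73 ± 0.014 in the S42D line, 11.98 ± 0.0071 in the S42A line, 11.36 ± 0.030 in the wild-type Twist1 line, 11.38 ± 0.059 in Tw1KD cells and 11.41 ± 0.027 in parental cells. There the S42D line was next to the S42A line, and the 3 others lay within their spread of each other. In complex V (17 genes) they were 12.04 ± 0.0072 in the S42D line, 12.05 ± 0.0070 in the S42A line, 11.87 ± 0.020 in the wild-type Twist1 line, 11.63 ± 0.084 in Tw1KD cells and 11.78 ± 0.019 in parental cells, with S42D and S42A arrays overlapping. Complex II medians averaged 11.82 ± 0.038 in the S42A line, against 11.35 ± 0.047 in Tw1KD cells, and complex III medians 11.11 ± 0.066 against 10.83 ± 0.025, with S42A the highest line in both.

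Genes were tested across all 15 arrays with limma, and a gene is called at an adjusted p (Benjamini-Hochberg over 19937 genes, 2-sided) under 0.05. Differences are log2, the line named first minus the other, with their standard error after ±. In the S42A line against Tw1KD cells 52 subunit genes were called higher and 8 lower, while 22.8% of all genes were called higher and 19.7% lower. The S42A line against the wild-type Twist1 line gave 42 higher (background 20%) and 5 lower (20%). The S42D line against the S42A line gave 5 higher (17.1%) and 47 lower (19.1%). In these 3 comparisons the subunit genes leaned well beyond the background in a single direction. The background takes in genes below 5.51, where only 2 subunit genes lie, and it was higher without those dim genes, as given below. The wild-type Twist1 line against Tw1KD cells gave 36 higher (23.5%) and 15 lower (24.5%), and the S42D line against Tw1KD cells 29 higher (21.7%) and 16 lower (21.7%). As shares of the 82 genes, the higher calls came to 43.9% and 35.4%, and the lower calls to 18.3% and 19.5%, near the background. Tw1KD against parental cells gave 14 higher (19.9%) and 19 lower (16.4%), and S42D against wild-type Twist1 gave 20 higher (20.7%) and 19 lower (22.6%). These last counts are 17.1% and 23.2%, and 24.4% and 23.2%, of the subunit genes, which is close to the background. With arrays centred on their medians, S42D against wild-type Twist1 instead gave 38 lower. Centring also moved the median difference of all genes there to -0.085, beside -0.11 over the subunit genes. Cyclic loess gave 23 lower for wild-type Twist1 against Tw1KD. Array weights gave 14 lower for S42A against Tw1KD, and centring gave 12 lower for Tw1KD against parental cells and 3 higher for S42D against S42A. Comparisons that share a line share its 3 arrays and are not independent of each other.

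**Figure D2:**
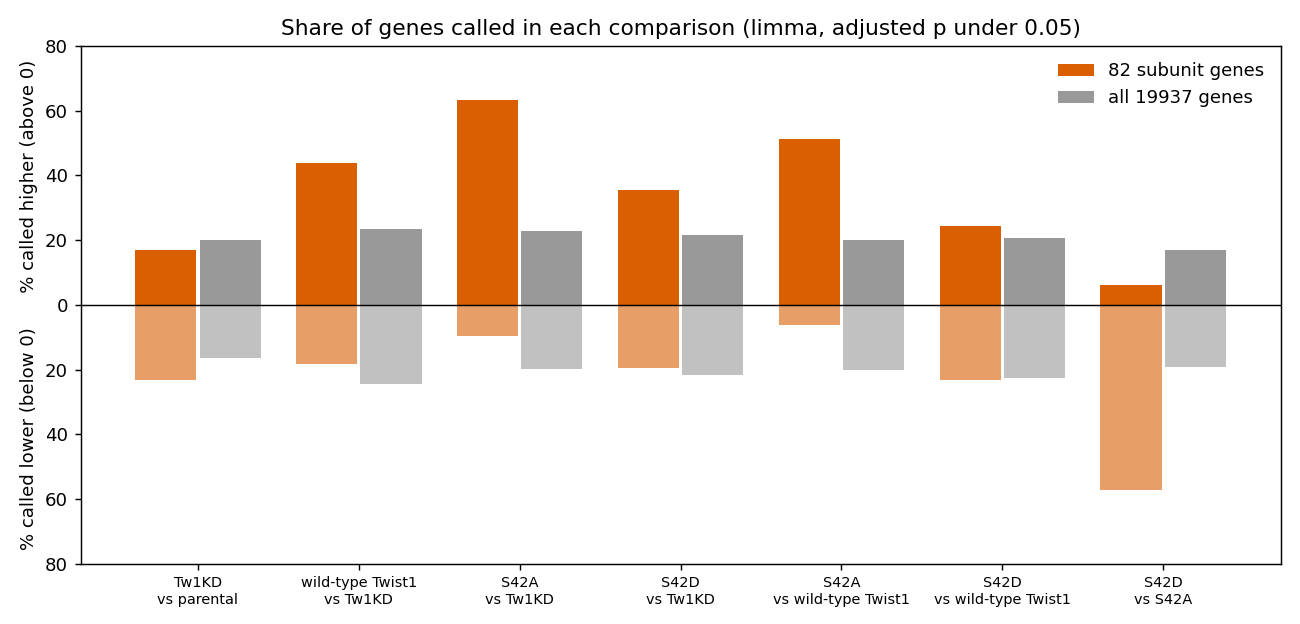
Percent of the 82 subunit genes (orange) and of all 19937 genes (grey) called higher (above 0) or lower (below 0, paler) in each comparison, the line named first over the other. The orange bars exceed the grey ones most for S42A against Tw1KD (63.4% higher) and, downward, for S42D against S42A (57.3% lower).

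The sizes were mostly small. The median difference over the 82 genes was 0.26 for S42A minus Tw1KD, against -0.013 over all genes. In that comparison 19 of the 82 genes were called at least 1.5-fold higher, beside 1360 of all 19937 genes. At least 2-fold higher were 3 of the 82, beside 488 of all genes. The median difference was 0.18 for S42A minus wild-type Twist1 (all genes 0.041) and -0.18 for S42D minus S42A (all genes -0.034). Medians were 0.081 for wild-type Twist1 minus Tw1KD (all genes -0.061) and 0.069 for S42D minus Tw1KD (all genes -0.045). The wild-type Twist1 value was 0.036 without Tw1KD replicate 2, 0.057 without wild-type Twist1 replicate 2, 0.033 with cyclic loess, 0.030 with array weights and 0.13 with median centring. For Tw1KD minus parental and S42D minus wild-type Twist1 they were 0.00094 and -0.013, beside 0.0051 and 0.010 over all genes. The spread between the highest and lowest line mean had a median of 0.47 over the common subunits, 0.20 over the restricted isoforms and 0.36 over all genes. It reached 2-fold in 4 genes (Ndufa1, Ndufa4, Atp5o and Atp5g3), and in 12 it stayed under 0.2.

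**Figure D3:**
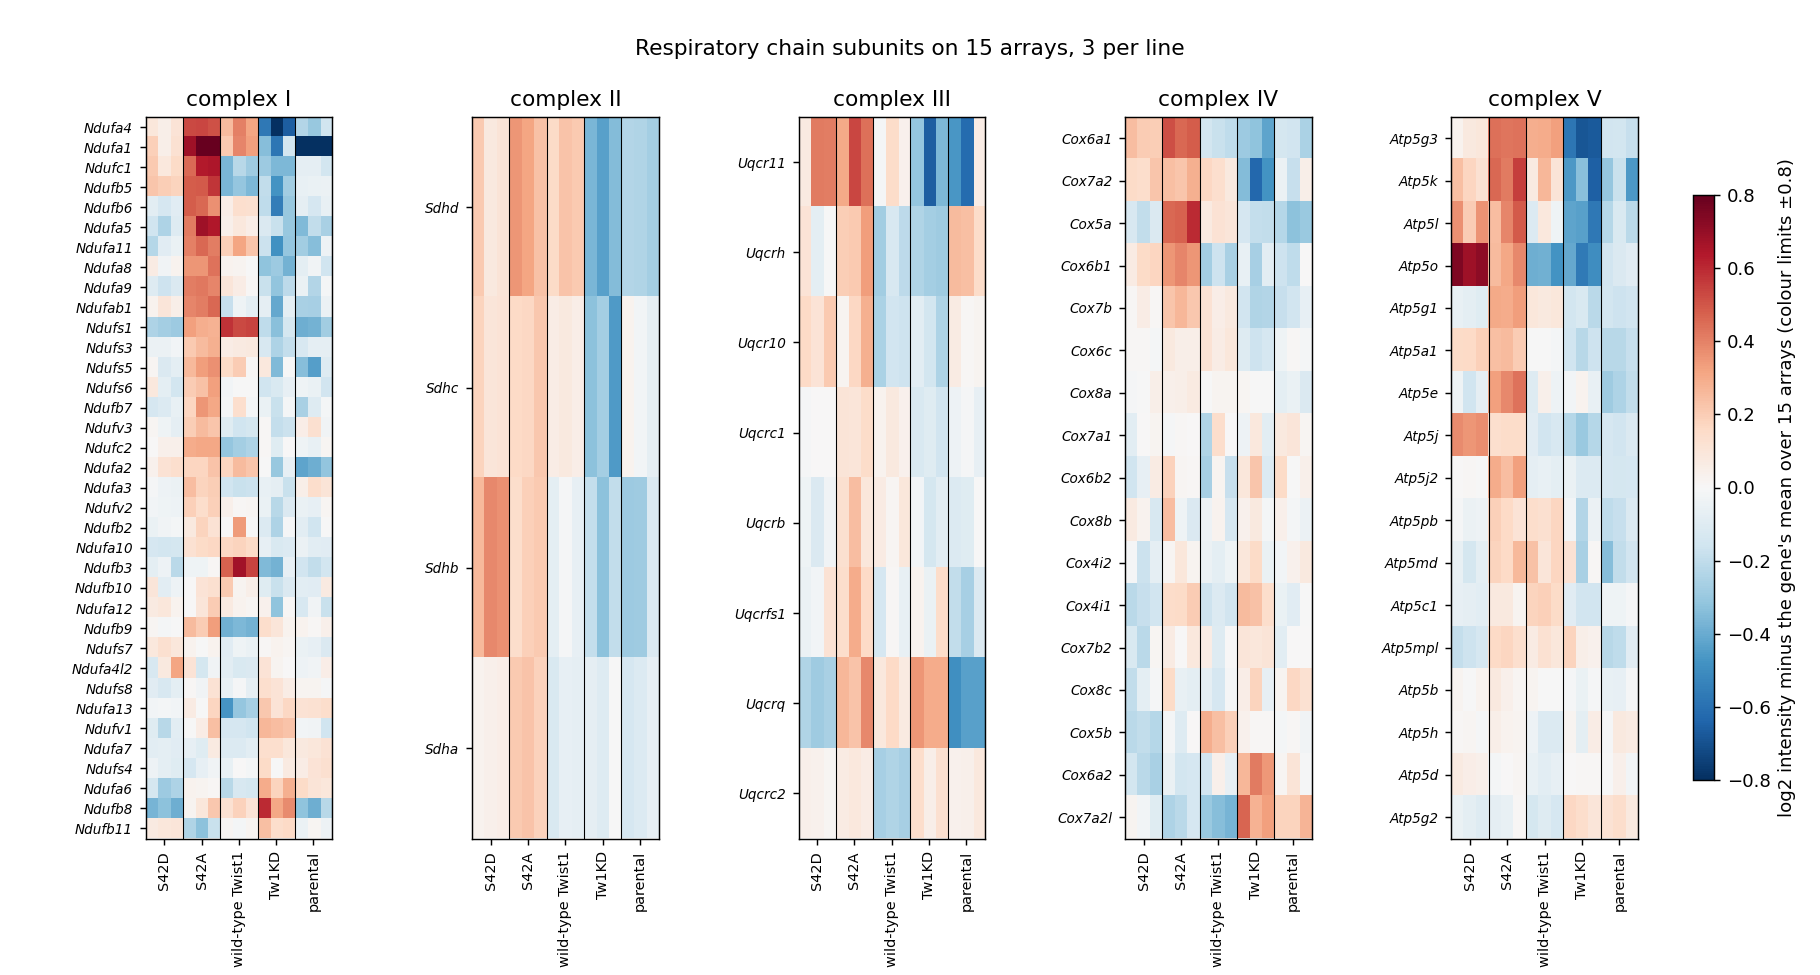
Each subunit gene on each array, as log2 intensity minus the gene's own mean over the 15 arrays (red above, blue below, colours ending at ±0.8), 3 columns per line, genes of a complex ordered by S42A minus Tw1KD. The S42A columns are red for most genes and the Tw1KD columns blue for many, with the reverse for Cox7a2l, Cox6a2 and Ndufb11 at the bottom of their panels.

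Among the complex I symbols, 25 of 36 rose in the S42A line over Tw1KD cells and 5 fell. Ndufa4, long listed under complex I and placed in complex IV by current structures, read 10.82, 10.78 and 10.84 in S42D cells, 11.26, 11.26 and 11.24 in S42A cells, 10.98, 11.13 and 11.04 in wild-type Twist1 cells, 10.15, 9.87 and 10.07 in Tw1KD cells and 10.49, 10.42 and 10.57 in parental cells. The S42A arrays were highest and the Tw1KD arrays lowest, with no overlap between any of these lines (S42A minus Tw1KD 1.22 ± 0.065, adjusted p = 1.35e-09). Ndufa1, a small X-linked subunit of the membrane arm, read 8.51, 8.37 and 8.44 in S42D cells, 9.00, 9.25 and 9.19 in S42A cells, 8.53, 8.71 and 8.64 in wild-type Twist1 cells, 7.98, 7.74 and 8.17 in Tw1KD cells and 7.34, 7.39 and 7.51 in parental cells. Here the lines did not overlap, parental cells were lowest, and S42A exceeded Tw1KD by 1.19 ± 0.097, adjusted p = 1.28e-07. S42A minus parental was 1.73 ± 0.097, a 3.33-fold difference and the widest spread over lines of any subunit gene. Tw1KD minus parental was 0.55 ± 0.097, adjusted p = 0.000359.

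Several accessory subunits of the membrane arm set S42A apart from wild-type Twist1. Ndufc1 read 10.73, 10.61 and 10.68 in S42D cells, 10.98, 11.16 and 11.17 in S42A cells, 10.15, 10.30 and 10.24 in wild-type Twist1 cells, 10.23, 10.17 and 10.16 in Tw1KD cells and 10.45, 10.45 and 10.38 in parental cells. The S42A arrays stood alone, S42D was next, and the wild-type Twist1 line overlapped Tw1KD cells (S42A minus wild-type Twist1 0.87 ± 0.057, adjusted p = 2.05e-08). Ndufb5 behaved likewise, with 11.11, 11.08 and 11.07 in S42D cells, 11.37, 11.38 and 11.46 in S42A cells, 10.53, 10.58 and 10.53 in wild-type Twist1 cells, 10.69, 10.41 and 10.61 in Tw1KD cells and 10.83, 10.84 and 10.84 in parental cells. S42A exceeded wild-type Twist1 by 0.86 ± 0.057, adjusted p = 2.29e-08, and S42D exceeded it by 0.54 ± 0.057, adjusted p = 1.72e-06. Ndufb9 read 12.32, 12.28 and 12.30 in S42D cells, 12.55, 12.50 and 12.63 in S42A cells, 11.92, 11.94 and 11.92 in wild-type Twist1 cells, 12.44, 12.39 and 12.33 in Tw1KD cells and 12.33, 12.31 and 12.34 in parental cells. Wild-type Twist1 was below every other line without overlap (-0.46 ± 0.041, adjusted p = 3.18e-07 against Tw1KD cells), and S42A was above every other line. Ndufa13, also known as Grim19, was low in the same line, with 9.48, 9.49 and 9.48 in S42D cells, 9.57, 9.50 and 9.68 in S42A cells, 9.03, 9.20 and 9.24 in wild-type Twist1 cells, 9.72, 9.61 and 9.67 in Tw1KD cells and 9.62, 9.63 and 9.65 in parental cells. Its wild-type Twist1 arrays lay below all others (wild-type Twist1 minus Tw1KD -0.51 ± 0.057, adjusted p = 2.75e-06).

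Ndufs1 and Ndufb3 were instead highest in the wild-type Twist1 line. Ndufs1, the largest iron-sulfur subunit of the matrix arm, read 10.07, 10.04 and 10.03 in S42D cells, 10.64, 10.61 and 10.60 in S42A cells, 10.89, 10.84 and 10.85 in wild-type Twist1 cells, 10.11, 9.98 and 10.18 in Tw1KD cells and 9.92, 9.93 and 10.04 in parental cells. Wild-type Twist1 and S42A formed the upper levels, and S42D lay among Tw1KD and parental arrays (S42D minus wild-type Twist1 -0.82 ± 0.050, adjusted p = 5.38e-09, S42D minus S42A -0.57 ± 0.050, adjusted p = 4.17e-07). Ndufb3, of the membrane arm, read 8.46, 8.49 and 8.32 in S42D cells, 8.50, 8.50 and 8.54 in S42A cells, 9.01, 9.21 and 9.08 in wild-type Twist1 cells, 8.18, 8.15 and 8.47 in Tw1KD cells and 8.38, 8.34 and 8.38 in parental cells. The wild-type Twist1 arrays stood well above the rest, S42A arrays lay just above the other 3 lines, and those overlapped (0.83 ± 0.077, adjusted p = 4.22e-07 against Tw1KD cells). S42A minus wild-type Twist1 was -0.58 ± 0.077 and S42D minus wild-type Twist1 -0.67 ± 0.077.

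Ndufa5, of the matrix arm, was raised in the S42A line above all others, with 7.67, 7.58 and 7.72 in S42D cells, 8.24, 8.51 and 8.47 in S42A cells, 7.87, 7.91 and 7.88 in wild-type Twist1 cells, 7.71, 7.65 and 7.52 in Tw1KD cells and 7.48, 7.63 and 7.57 in parental cells. The S42D, Tw1KD and parental arrays overlapped, and S42D minus S42A was -0.75 ± 0.071, adjusted p = 9.1e-07. A few complex I genes fell. Ndufb8, of the membrane arm, read 9.59, 9.63 and 9.56 in S42D cells, 9.98, 10.05 and 10.17 in S42A cells, 10.08, 10.14 and 10.07 in wild-type Twist1 cells, 10.55, 10.26 and 10.33 in Tw1KD cells and 9.63, 9.57 and 9.73 in parental cells. Tw1KD cells were highest, S42D and parental arrays overlapped at the bottom, and S42A and wild-type Twist1 overlapped between them. Tw1KD exceeded parental cells by 0.74 ± 0.071, adjusted p = 1.17e-06, and S42D minus Tw1KD was -0.79 ± 0.071, adjusted p = 3.79e-07. Ndufb11, also X-linked, read 11.54, 11.56 and 11.56 in S42D cells, 11.23, 11.14 and 11.29 in S42A cells, 11.48, 11.46 and 11.49 in wild-type Twist1 cells, 11.71, 11.61 and 11.63 in Tw1KD cells and 11.42, 11.49 and 11.43 in parental cells. It was lowest in the S42A line on all arrays (-0.43 ± 0.044, adjusted p = 1.48e-06 against Tw1KD cells). Ndufv1, which holds the NADH and flavin site, read 10.79, 10.66 and 10.80 in S42D cells, 10.88, 10.94 and 11.12 in S42A cells, 10.75, 10.75 and 10.73 in wild-type Twist1 cells, 11.15, 11.13 and 11.11 in Tw1KD cells and 10.86, 10.85 and 10.73 in parental cells, with the Tw1KD arrays high and reached by a single S42A array (Tw1KD minus parental 0.32 ± 0.061, adjusted p = 0.000677). Ndufa6 read 10.43, 10.28 and 10.33 in S42D cells, 10.61, 10.60 and 10.59 in S42A cells, 10.35, 10.44 and 10.43 in wild-type Twist1 cells, 10.87, 10.75 and 10.86 in Tw1KD cells and 10.73, 10.68 and 10.67 in parental cells, Tw1KD being the highest and S42D and wild-type Twist1 the lowest lines. S42D minus Tw1KD was -0.48 ± 0.048, adjusted p = 9.66e-07, and wild-type Twist1 minus Tw1KD -0.42 ± 0.048, adjusted p = 3.54e-06. The other complex I genes called lower in S42A against Tw1KD cells were Ndufs4 and Ndufa7 (-0.15 and -0.15). Not called there were Ndufa12, Ndufv1, Ndufa13, Ndufs8, Ndufs7 and the isoform Ndufa4l2, whose differences ran from -0.15 to 0.19.

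Complex II is the succinate dehydrogenase, which also works in the citric acid cycle, and all 4 of its subunits rose in both substituted lines over Tw1KD cells. Sdhd, a membrane anchor, read 11.76, 11.63 and 11.65 in S42D cells, 11.90, 11.86 and 11.78 in S42A cells, 11.70, 11.78 and 11.76 in wild-type Twist1 cells, 11.18, 11.11 and 11.20 in Tw1KD cells and 11.31, 11.31 and 11.28 in parental cells. S42D and wild-type Twist1 overlapped, and Tw1KD arrays were lowest (S42A minus Tw1KD 0.69 ± 0.046, adjusted p = 1.67e-08). Sdhc, the other anchor, read 12.39, 12.31 and 12.32 in S42D cells, 12.37, 12.38 and 12.43 in S42A cells, 12.28, 12.29 and 12.26 in wild-type Twist1 cells, 11.89, 11.94 and 11.76 in Tw1KD cells and 12.24, 12.19 and 12.14 in parental cells, with S42D and S42A overlapping (S42A minus Tw1KD 0.53 ± 0.049, adjusted p = 4.18e-07, S42D minus Tw1KD 0.48 ± 0.049, adjusted p = 1.26e-06). Sdhb, the iron-sulfur subunit, read 11.14, 11.26 and 11.25 in S42D cells, 11.03, 11.07 and 11.09 in S42A cells, 10.80, 10.87 and 10.82 in wild-type Twist1 cells, 10.69, 10.55 and 10.69 in Tw1KD cells and 10.59, 10.60 and 10.77 in parental cells. It was highest in the S42D line, above S42A by 0.16 ± 0.056, adjusted p = 0.0412. Sdha, the flavoprotein, read 11.62, 11.63 and 11.64 in S42D cells, 11.80, 11.82 and 11.78 in S42A cells, 11.47, 11.52 and 11.52 in wild-type Twist1 cells, 11.52, 11.49 and 11.59 in Tw1KD cells and 11.46, 11.48 and 11.53 in parental cells. The S42A arrays exceeded the rest, by 0.27 ± 0.038, adjusted p = 3.71e-05 against Tw1KD cells, and S42D minus Tw1KD was 0.10 ± 0.038, adjusted p = 0.0466. The wild-type Twist1 line was called higher than Tw1KD cells for Sdhb, Sdhc and Sdhd, and its Sdha difference was -0.028 ± 0.038.

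In complex III 5 of 8 genes rose in the S42A line over Tw1KD cells and none fell. Uqcr11, a small subunit, read 10.30, 10.65 and 10.64 in S42D cells, 10.53, 10.76 and 10.67 in S42A cells, 10.22, 10.38 and 10.26 in wild-type Twist1 cells, 9.92, 9.57 and 9.87 in Tw1KD cells and 9.77, 9.61 and 10.29 in parental cells. The Tw1KD arrays lay below all S42A arrays (0.87 ± 0.15, adjusted p = 0.000232). The parental arrays ran from 9.61 to 10.29 and overlapped those of Tw1KD and wild-type Twist1. Uqcrh, the hinge subunit by which cytochrome c docks, read 11.39, 11.19 and 11.27 in S42D cells, 11.47, 11.48 and 11.61 in S42A cells, 11.00, 11.14 and 11.07 in wild-type Twist1 cells, 11.03, 11.00 and 10.99 in Tw1KD cells and 11.52, 11.51 and 11.42 in parental cells. Tw1KD and wild-type Twist1 formed a low pair, and parental cells and S42A a high one (S42A minus Tw1KD 0.51 ± 0.058, adjusted p = 3.61e-06, Tw1KD minus parental -0.48 ± 0.058, adjusted p = 1.1e-05). Uqcrq, a small accessory subunit, read 10.10, 10.05 and 10.08 in S42D cells, 10.60, 10.57 and 10.72 in S42A cells, 10.42, 10.49 and 10.41 in wild-type Twist1 cells, 10.68, 10.63 and 10.63 in Tw1KD cells and 9.84, 9.90 and 9.90 in parental cells. It was the largest rise of any subunit gene in Tw1KD over parental cells (0.77 ± 0.045, adjusted p = 7.01e-09). S42A arrays overlapped those of Tw1KD, and S42D minus S42A was -0.55 ± 0.045, adjusted p = 2e-07. Of the rest, Uqcrb, Uqcrc1 and Uqcr10 rose in S42A over Tw1KD cells by 0.24, 0.24 and 0.32. The Rieske gene Uqcrfs1 (0.16 ± 0.067) and the core gene Uqcrc2 (-0.038 ± 0.036) were not called.

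In complex IV 6 of the 10 common genes rose in the S42A line over Tw1KD cells and 1 fell. Cox6a1 read 11.59, 11.54 and 11.54 in S42D cells, 11.86, 11.80 and 11.83 in S42A cells, 11.20, 11.16 and 11.14 in wild-type Twist1 cells, 11.05, 11.02 and 10.92 in Tw1KD cells and 11.20, 11.19 and 11.09 in parental cells. S42A was highest, S42D next, and both were clear of all other lines (S42A minus Tw1KD 0.83 ± 0.045, adjusted p = 1.46e-09, S42D minus Tw1KD 0.56 ± 0.045, adjusted p = 9.87e-08). Cox5a, a structural subunit on the matrix side, read 10.43, 10.37 and 10.45 in S42D cells, 11.02, 11.04 and 11.16 in S42A cells, 10.63, 10.68 and 10.66 in wild-type Twist1 cells, 10.43, 10.37 and 10.36 in Tw1KD cells and 10.33, 10.23 and 10.27 in parental cells. S42A was highest, wild-type Twist1 next, and S42D overlapped Tw1KD cells (S42D minus S42A -0.66 ± 0.046, adjusted p = 3.86e-08). Cox7a2 read 11.05, 11.04 and 11.12 in S42D cells, 11.14, 11.11 and 11.18 in S42A cells, 11.06, 11.03 and 10.97 in wild-type Twist1 cells, 10.55, 10.27 and 10.42 in Tw1KD cells and 10.85, 10.71 and 10.94 in parental cells. Tw1KD cells were lowest and all other lines above them (S42A minus Tw1KD 0.73 ± 0.068, adjusted p = 5e-07, Tw1KD minus parental -0.42 ± 0.068, adjusted p = 0.000167). Cox5b read 12.37, 12.39 and 12.36 in S42D cells, 12.57, 12.49 and 12.59 in S42A cells, 12.88, 12.83 and 12.78 in wild-type Twist1 cells, 12.62, 12.60 and 12.60 in Tw1KD cells and 12.57, 12.60 and 12.56 in parental cells. It was highest in the wild-type Twist1 line and lowest in the S42D line, S42D minus wild-type Twist1 being -0.46 ± 0.039, adjusted p = 2e-07.

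Cox7a2l, known for joining complexes III and IV into supercomplexes, went against its complex. It read 9.66, 9.62 and 9.54 in S42D cells, 9.39, 9.42 and 9.50 in S42A cells, 9.34, 9.29 and 9.26 in wild-type Twist1 cells, 10.10, 9.91 and 9.96 in Tw1KD cells and 9.81, 9.81 and 9.90 in parental cells. Tw1KD and parental arrays were the highest and wild-type Twist1 the lowest, with no overlap between any lines. The differences from Tw1KD cells were -0.39 ± 0.054, adjusted p = 3.06e-05 for S42D, -0.56 ± 0.054, adjusted p = 8.07e-07 for S42A and -0.70 ± 0.054, adjusted p = 7.26e-08 for wild-type Twist1. S42D minus S42A was 0.17 ± 0.054, adjusted p = 0.0262, a call lost when arrays were centred on their medians (0.089). The gene's other probe set gave S42A minus Tw1KD as -0.59.

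Of the 17 complex V genes, 12 rose in the S42A line over Tw1KD cells and 1, Atp5g2, fell (-0.18). Atp5g3, a gene for the c subunit of the rotor ring, read 12.06, 12.11 and 12.12 in S42D cells, 12.47, 12.45 and 12.46 in S42A cells, 12.32, 12.32 and 12.36 in wild-type Twist1 cells, 11.45, 11.35 and 11.35 in Tw1KD cells and 11.87, 11.88 and 11.84 in parental cells. The 5 lines did not overlap at all, S42A being highest and Tw1KD lowest. S42A minus Tw1KD was 1.08 ± 0.038, adjusted p = 1.63e-11, wild-type Twist1 minus Tw1KD 0.95 ± 0.038, adjusted p = 7.2e-11 and Tw1KD minus parental -0.48 ± 0.038, adjusted p = 1.48e-07. Atp5g1, Atp5g2 and Atp5g3 encode the same mature c subunit, and Atp5g1 rose in S42A by 0.47 while Atp5g2 fell. Atp5k, the e subunit of the membrane domain, read 9.29, 9.22 and 9.17 in S42D cells, 9.51, 9.47 and 9.60 in S42A cells, 9.12, 9.32 and 9.15 in wild-type Twist1 cells, 8.59, 8.71 and 8.40 in Tw1KD cells and 8.75, 8.87 and 8.59 in parental cells. S42A was highest, S42D and wild-type Twist1 overlapped, and Tw1KD and parental arrays overlapped at the bottom (S42A minus Tw1KD 0.96 ± 0.085, adjusted p = 3.15e-07). Atp5l, the g subunit, read 10.98, 10.81 and 10.97 in S42D cells, 10.86, 11.00 and 11.10 in S42A cells, 10.50, 10.70 and 10.58 in wild-type Twist1 cells, 10.19, 10.18 and 10.04 in Tw1KD cells and 10.38, 10.49 and 10.40 in parental cells. S42D and S42A overlapped above the 3 other lines (S42D minus Tw1KD 0.78 ± 0.072, adjusted p = 4.28e-07, S42A minus Tw1KD 0.85 ± 0.072, adjusted p = 1.8e-07).

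The stalk genes Atp5o and Atp5j were highest in the S42D line. Other genes of that stalk were not: Atp5pb had its highest mean in S42A cells (11.88) and Atp5h in parental cells (11.66). In all, 7 of the 82 genes had their highest line mean in S42D, among them also Atp5d, Ndufs7, Uqcr10 and Sdhb. Atp5o, the oligomycin sensitivity protein that ties the catalytic head to the peripheral stalk, read 11.53, 11.46 and 11.49 in S42D cells, 11.03, 11.09 and 11.16 in S42A cells, 10.39, 10.40 and 10.30 in wild-type Twist1 cells, 10.37, 10.22 and 10.28 in Tw1KD cells and 10.63, 10.67 and 10.69 in parental cells. S42D exceeded S42A, S42A exceeded parental cells, and wild-type Twist1 overlapped Tw1KD cells at the bottom. S42D minus Tw1KD was 1.20 ± 0.049, adjusted p = 8.33e-11, S42D minus wild-type Twist1 1.13 ± 0.049, adjusted p = 1.73e-10 and S42D minus S42A 0.40 ± 0.049, adjusted p = 1.37e-05. Atp5j, coupling factor 6 of the same stalk, read 12.28, 12.26 and 12.28 in S42D cells, 12.04, 12.06 and 12.06 in S42A cells, 11.82, 11.75 and 11.78 in wild-type Twist1 cells, 11.68, 11.61 and 11.68 in Tw1KD cells and 11.77, 11.76 and 11.80 in parental cells. S42D was again above all, S42A next, and wild-type Twist1 overlapped parental cells (S42D minus wild-type Twist1 0.49 ± 0.035, adjusted p = 3.15e-08, S42D minus S42A 0.22 ± 0.035, adjusted p = 0.000141). Of the catalytic head and the central stalk, Atp5a1 rose in S42A over Tw1KD cells by 0.42 and Atp5c1 by 0.19. Atp5b (0.067 ± 0.035) and Atp5d (-0.0047 ± 0.033) were not called. Atp5b and Atp5d lay above 12.5, where 9 subunit genes sit and where the highest signals of any array end at 13.90 to 14.02. Over those 9 genes 3 rose and 1 fell in S42A against Tw1KD cells, with a median difference of 0.052. How far signal saturation limits them was not tested.

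**Figure D4:**
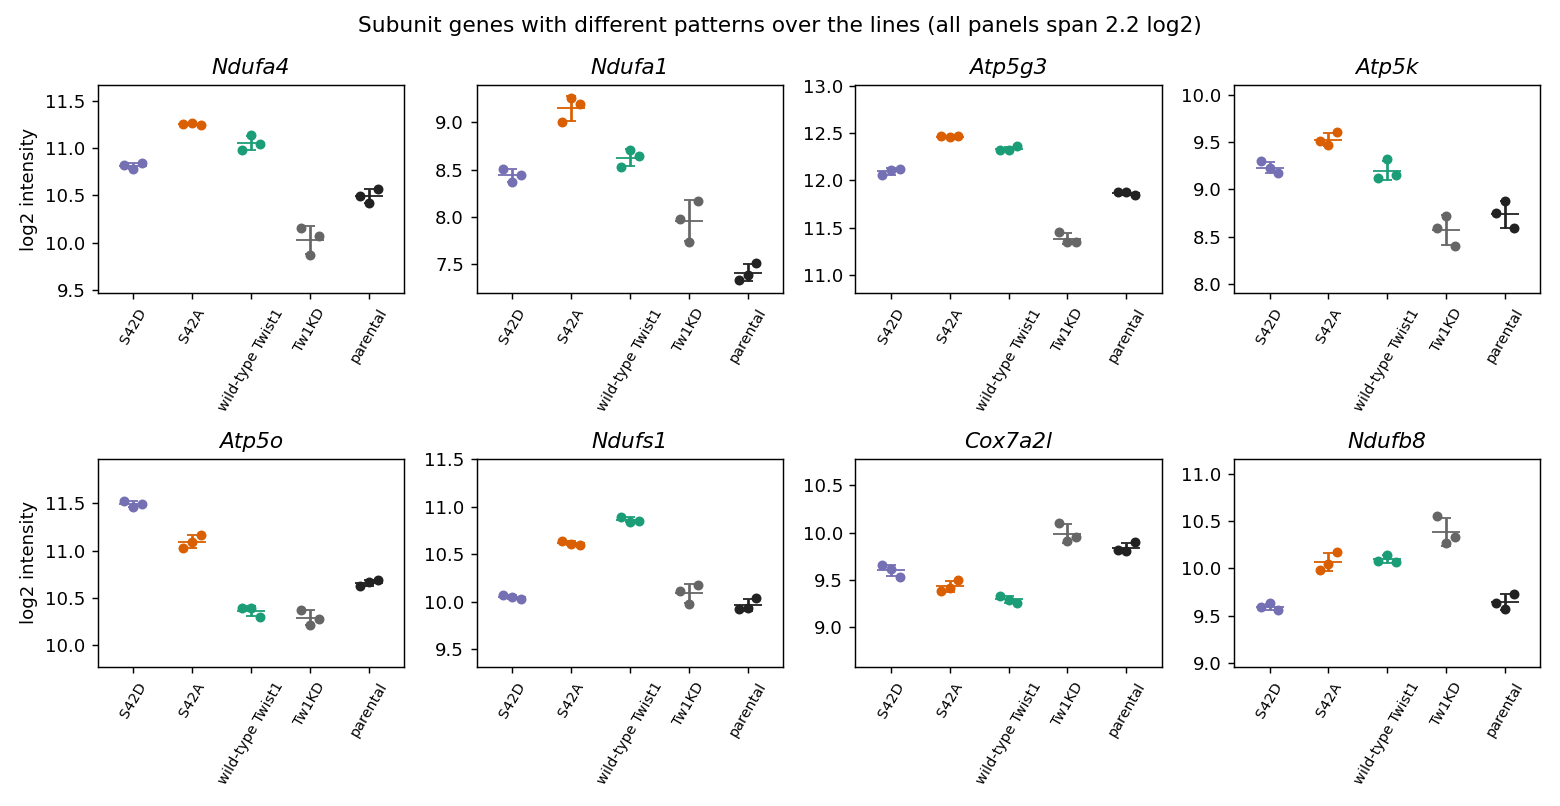
Log2 intensity of 8 subunit genes on each array (points), with mean and standard deviation of the 3 arrays of a line. Ndufa4, Ndufa1, Atp5g3 and Atp5k peak in the S42A line, Atp5o in the S42D line and Ndufs1 in the wild-type Twist1 line, while Cox7a2l and Ndufb8 peak in Tw1KD cells.

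Set directly against each other, the lines with the S42 substitutions differed most in complex I. There S42D was lower than S42A for 25 of 36 genes and higher for Ndufb11 alone (0.33 ± 0.044, adjusted p = 2.68e-05), and the median difference was -0.27. The largest falls were Ndufa5 and Ndufa1 (-0.71 ± 0.097, adjusted p = 3.59e-05), Cox5a of complex IV, and Ndufs1. Complex III had 5 of 8 genes lower, the common complex IV genes 6 of 10 lower, and complex V 9 of 17 lower and 2 higher. Complex II had 2 lower (Sdha and Sdhd) and 1 higher (Sdhb). The 5 genes higher in S42D were Atp5o, Ndufb11, Atp5j, Cox7a2l and Sdhb. Against wild-type Twist1, S42D had 10 complex I genes lower and 7 higher, and 6 complex V genes lower and 5 higher. These are 27.8% and 19.4% of complex I and 35.3% and 29.4% of complex V, beside 22.6% lower and 20.7% higher among all genes, so complex I was near the background.

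The wild-type Twist1 line over Tw1KD cells showed 15 complex I genes higher and 9 lower, 9 complex V genes higher and 1 lower, and 6 of the 10 common complex IV genes higher and 2 lower, where 23.5% of all genes were higher and 24.5% lower. Ndufa4 (1.02 ± 0.065, adjusted p = 8.7e-09) and Atp5g3 led the rise. The S42D line over Tw1KD cells had 9 complex I genes higher and 7 lower, and 7 complex V genes higher and 2 lower. The complex I shares (25% and 19.4%) were near those of all genes (21.7% each way), and the complex V shares were 41.2% and 11.8%. Uqcr11 (0.74 ± 0.15, adjusted p = 0.000875) and Ndufa4 (0.78 ± 0.065, adjusted p = 1.66e-07) were among its larger rises, and Uqcrq (-0.57 ± 0.045, adjusted p = 8.48e-08) among its falls. In Tw1KD against parental cells each complex had members on both sides except complex II, where Sdhc (-0.33 ± 0.049) and Sdhd (-0.14 ± 0.046) fell and Sdha and Sdhb were not called. Shares higher and lower were 19.4% and 19.4% in complex I, 25% and 25% in complex III, and 17.6% and 17.6% in complex IV. In complex V they were 11.8% and 29.4%. Among all genes they were 19.9% and 16.4%, so complexes I and IV were near the background. Ndufa4 (-0.47 ± 0.065, adjusted p = 4.33e-05) and Atp5g3 were among the largest falls in that comparison.

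Against parental cells, the S42A line had 53 subunit genes called higher (22.6% of all genes) and 5 lower (17.7%), with a median difference of 0.26. The wild-type Twist1 line had 32 higher (25%) and 17 lower (24%), and the S42D line 28 higher (19.8%) and 10 lower (17.2%). Quantile normalization gave 17 higher and 17 lower for S42D, and median centring gave 50 higher and 11 lower for wild-type Twist1 and 2 lower for S42A. Ndufa1 was the largest rise in each, at 1.03 ± 0.097 for S42D, 1.73 ± 0.097 for S42A and 1.21 ± 0.097 for wild-type Twist1. Next came Atp5o in S42D (0.83 ± 0.049), Ndufa5 in S42A (0.85 ± 0.071) and Ndufs1 in wild-type Twist1 (0.90 ± 0.050). The largest falls were Ndufa6 in S42D (-0.34 ± 0.048) and Cox7a2l in S42A (-0.41 ± 0.054) and wild-type Twist1 (-0.55 ± 0.054). These comparisons share the parental arrays.

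Of the 8 restricted isoforms none was called higher in S42A against Tw1KD cells and 1 (12.5%), Cox6a2, was lower. Among all genes 22.8% were called higher there and 19.7% lower. Cox6a2, the heart and skeletal muscle form, read 7.52, 7.46 and 7.41 in S42D cells, 7.62, 7.52 and 7.53 in S42A cells, 7.52, 7.71 and 7.60 in wild-type Twist1 cells, 7.93, 8.08 and 8.02 in Tw1KD cells and 7.68, 7.77 and 7.66 in parental cells. It was highest in Tw1KD cells without overlap, with differences of -0.55 ± 0.057, adjusted p = 1.75e-06 for S42D, -0.45 ± 0.057, adjusted p = 1.14e-05 for S42A, -0.40 ± 0.057, adjusted p = 3.34e-05 for wild-type Twist1 and 0.31 ± 0.057, adjusted p = 0.000582 for Tw1KD minus parental cells. Its common partner Cox6a1 moved the other way. Over the 15 arrays the muscle forms Cox7a1 (4.90 to 5.28, median 5.15) and Cox8b (5.81 to 6.19, median 5.93) were called in no main comparison. Of the testis forms, Cox6b2 ran from 5.70 to 6.18 (median 5.98), Cox7b2 from 4.06 to 4.39 (4.28) and Cox8c from 6.96 to 7.33 (7.14). Cox4i2, found in lung and induced at low oxygen, ran from 6.77 to 7.09 (6.93), and the hypoxia-induced Ndufa4l2 from 6.38 to 6.83 (6.49). Besides Cox6a2, the isoforms called in any main comparison were Cox7b2 (-0.20 ± 0.059, adjusted p = 0.0109) and Cox4i2 (-0.15 ± 0.056, adjusted p = 0.0463), both in S42D minus Tw1KD. With Cox6a2, 3 of the 8 isoforms (37.5%) were lower in that comparison, beside 21.7% of all genes. Cox7a1 and Cox7b2 lay under 5.51, the level below which the dimmest genes were left out in an alternative fit, and a change at such low signal could be missed.

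The common partners varied more. Cox6b1 read 11.84, 11.93 and 11.95 in S42D cells, 12.13, 12.17 and 12.13 in S42A cells, 11.51, 11.61 and 11.52 in wild-type Twist1 cells, 11.72, 11.51 and 11.70 in Tw1KD cells and 11.61, 11.57 and 11.78 in parental cells, with S42A clear of all lines (0.50 ± 0.064, adjusted p = 1.4e-05 against Tw1KD cells). Cox7b read 12.28, 12.34 and 12.28 in S42D cells, 12.49, 12.54 and 12.49 in S42A cells, 12.39, 12.33 and 12.35 in wild-type Twist1 cells, 12.12, 12.04 and 12.04 in Tw1KD cells and 12.09, 12.12 and 12.21 in parental cells, again with S42A highest (0.44 ± 0.042, adjusted p = 6.63e-07). Cox4i1 read 10.69, 10.71 and 10.74 in S42D cells, 11.05, 11.05 and 11.10 in S42A cells, 10.73, 10.79 and 10.75 in wild-type Twist1 cells, 11.15, 11.13 and 11.04 in Tw1KD cells and 10.85, 10.81 and 10.90 in parental cells. It was high in both S42A and Tw1KD cells, which overlapped (-0.043 ± 0.042), and lower in S42D (-0.39 ± 0.042, adjusted p = 1.85e-06) and wild-type Twist1 (-0.35 ± 0.042, adjusted p = 5.06e-06). Cox8a read 12.54, 12.54 and 12.59 in S42D cells, 12.59, 12.60 and 12.62 in S42A cells, 12.55, 12.57 and 12.57 in wild-type Twist1 cells, 12.56, 12.55 and 12.54 in Tw1KD cells and 12.47, 12.49 and 12.43 in parental cells and was called in none of the 7 main comparisons.

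**Figure D5:**
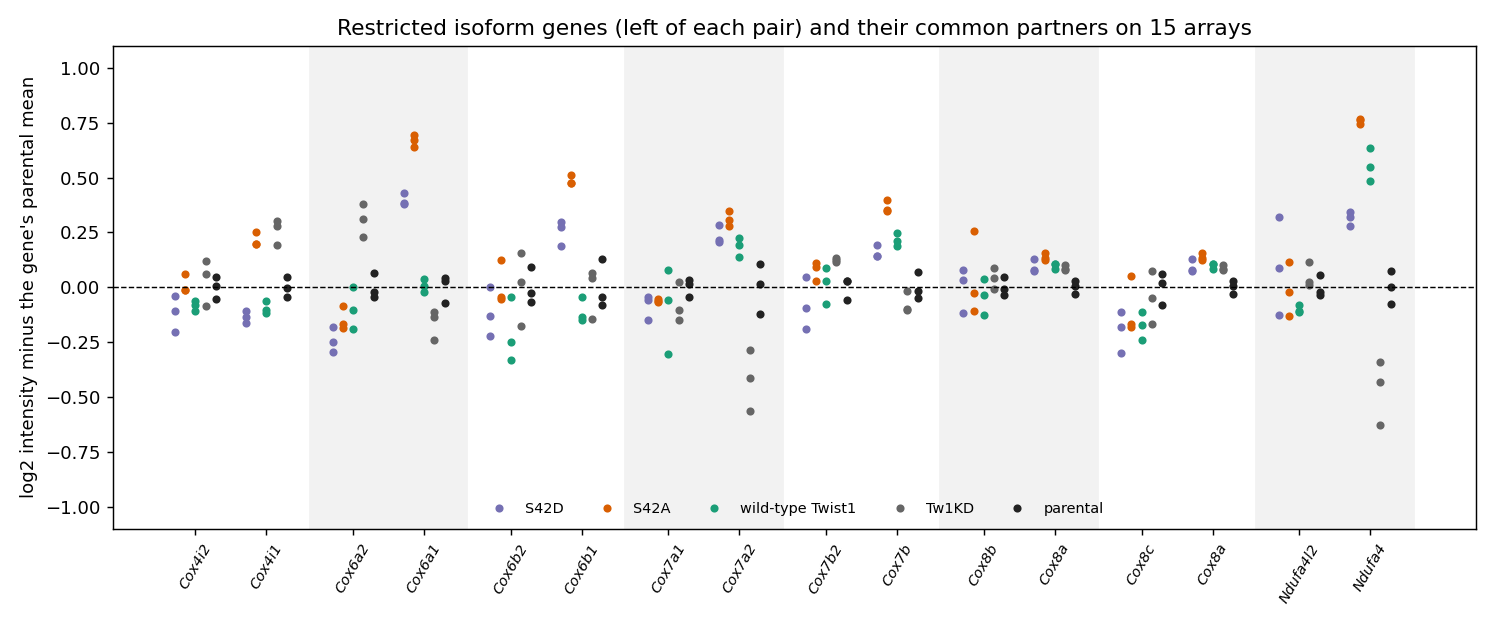
Log2 intensity of each restricted isoform gene and, to its right, its common partner on every array, as the difference from that gene's own mean in parental cells (dashed line at 0); colours give the line. Cox6a2 lies above 0 on all Tw1KD arrays and below 0 on all S42D arrays, single arrays of other restricted genes also lie away from 0, and Cox6a1, Cox6b1, Cox7b and Ndufa4 reach their highest points in the S42A line.

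Other genes of the same pathway were read from lists. Beside the counts that follow, 22.8% of all genes were called higher and 19.7% lower in S42A against Tw1KD cells, and 17.1% higher and 19.1% lower in S42D against S42A. Of 8 subunits and carriers outside the symbol rule, 5 rose and 1 fell in S42A against Tw1KD cells. Cyc1, cytochrome c1 of complex III, read 11.20, 11.22 and 11.21 in S42D cells, 11.62, 11.67 and 11.82 in S42A cells, 11.67, 11.66 and 11.67 in wild-type Twist1 cells, 11.20, 11.14 and 11.21 in Tw1KD cells and 11.01, 11.01 and 11.04 in parental cells. S42A and wild-type Twist1 overlapped at the top, and S42D lay with Tw1KD cells (S42A minus Tw1KD 0.52 ± 0.046, adjusted p = 3.13e-07, S42D minus S42A -0.49 ± 0.046, adjusted p = 8.97e-07). Cycs, cytochrome c, read 11.96, 11.92 and 11.98 in S42D cells, 12.29, 12.41 and 12.42 in S42A cells, 12.34, 12.34 and 12.37 in wild-type Twist1 cells, 12.19, 11.88 and 12.10 in Tw1KD cells and 11.63, 11.46 and 11.80 in parental cells (S42A minus Tw1KD 0.32 ± 0.083, adjusted p = 0.00564). Of 41 assembly factors 21 rose and 7 fell in S42A against Tw1KD cells, with a median of 0.27. Foxred1 and Ndufaf4, complex I factors, rose by 1.15 ± 0.052 and 0.96 ± 0.082, and Coa3, a complex IV factor, had -1.11 ± 0.090. Of 17 citric acid cycle genes 13 rose and 2 fell (median 0.28), with Idh3a at 1.34 ± 0.067 and Suclg1 at 0.65 ± 0.060. In S42D against S42A 12 of these 17 fell and none rose. Of 10 coenzyme Q synthesis genes 6 rose and 3 fell in S42A against Tw1KD cells, with Coq3 rising by 1.43 ± 0.10. Coq3 was low in Tw1KD cells, at -1.72 for Tw1KD minus parental. Wild-type Twist1 minus Tw1KD was 2.04 for this gene, and S42A minus parental -0.28. Ppargc1a, the PGC-1α coactivator, read 9.00, 8.94 and 8.86 in S42D cells, 11.26, 11.30 and 11.25 in S42A cells, 5.58, 5.22 and 5.73 in wild-type Twist1 cells, 7.30, 7.19 and 7.19 in Tw1KD cells and 5.29, 5.60 and 5.70 in parental cells. Its S42A arrays stood far above all others and S42D next (4.05 ± 0.11, adjusted p = 1.73e-12 for S42A minus Tw1KD), while wild-type Twist1 overlapped parental cells.

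Other probe sets mostly gave the same signs. For 17 subunit genes there were 24 further probe sets, and 22 of these had the sign of the brightest for S42A minus Tw1KD, the exceptions lying in Atp5h and Atp5md. Among the 65 genes with a single probe set 40 were called higher and 5 lower, with a median of 0.27. Many of these genes have processed copies elsewhere in the genome, and which copy a probe set reads was not analysed here. With genes below 5.51 left out, 52 of 80 subunit genes were called higher and 9 lower in S42A against Tw1KD cells, beside 30.2% and 25.8% of the 14953 genes then tested. S42A against wild-type Twist1 then gave 43 higher and 5 lower, beside 26.3% and 27.2%. S42D against S42A gave 6 higher and 47 lower, beside 22.9% and 25.6%.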

How the data were processed

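The authors deposited log2 intensities, 1 per probe set, for 15 arrays, and the unit was read from the values. The tools R 2.10.0 and affy are named, per the submitters' processing notes, without saying for which step. How background, normalization and probe summary were handled is not given in the sources used here, and array medians of 6.57 to 6.72 lie close together, so a change common to all transcripts would not show. Of 34760 probe sets 21640 carry 1 symbol, 1321 several and 11799 none. Symbols were updated by gene number against the GRCm38.p6 gene table (21553 matched), and the brightest probe set with 1 symbol stood for a gene, giving 19937 genes with no filter.

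limma 3.58.1 (R 4.3.3) was fitted to all arrays, each line having its own mean, with Benjamini-Hochberg adjusted p under 0.05 as the threshold, in 7 main comparisons and 3 with parental cells. The steps were tested on simulated data. The number of arrays limits the precision. Alternatives were median centring, quantile normalization, cyclic loess, dim genes left out, the mean of probe sets, array weights, a replicate block, an intensity trend, only the lines compared, and leaving out each array. Arrays are shown for the 4 largest called, non-overlapping members per direction and main comparison (2 in those with parental cells), for restricted isoforms and partners, and for all of complex II, which was added after its values were seen. Pathway genes were named as up to 2 called per list and direction, with Twist1, Ppargc1a, Cyc1, Cycs and Ppargc1b on every array and the others by their difference alone. The members and lists (assembly factors, citric acid cycle, coenzyme Q, subunits and carriers outside the rule, glycolysis, regulators, import, mitochondrial ribosome, cell type markers) were chosen with earlier results of these data known. Mitochondrially encoded subunits were not analysed here.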

Additional observations from a re-analysis of the deposited data

Results flagged for a closer look

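For 3 subunit genes, lines with different forms of Twist1 moved in opposite directions from Tw1KD cells, each by a called difference, and the direct difference between the lines was called by limma as well. Ndufb9 was 0.18 in S42A and -0.46 in wild-type Twist1 against Tw1KD cells, and S42A minus wild-type Twist1 was 0.636 (adjusted p = 1.8e-08). Ndufc2, another membrane-arm subunit of complex I, was 0.33 and -0.25 in the same lines, a difference of 0.582 (adjusted p = 2.58e-08). Cox5b was -0.23 in S42D and 0.22 in wild-type Twist1 against Tw1KD cells, and S42D minus wild-type Twist1 was -0.457 (adjusted p = 2e-07). The 3 arrays of each line did not overlap in any of these contrasts.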

How the results depend on the processing

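Of 450 alternative values of the counts and medians over the 82 genes, 421 stayed within 1.5 times or the replicate spread. The near-zero medians of Tw1KD against parental cells and S42D against wild-type Twist1 changed sign in some settings. Reversal was scored for named genes only, and none of their values reversed. For S42A against Tw1KD cells 48 genes were higher and 6 lower in all 16 settings. The other values were as follows. Median centring gave 12 lower and a median of 0.052 for Tw1KD against parental cells, a median of 0.13 for wild-type Twist1 against Tw1KD, 38 lower and -0.11 for S42D against wild-type Twist1, 3 higher and -0.26 for S42D against S42A, 50 higher, 11 lower and 0.19 for wild-type Twist1 against parental cells, and 2 lower and 0.34 for S42A against parental cells. It moved the median of all genes for wild-type Twist1 minus parental to 0.051, against -0.050. For S42D minus wild-type Twist1 the all-gene median moved to -0.085, against 0.010, and for S42D minus S42A to -0.11, against -0.034. For Tw1KD minus parental it moved to 0.056, against 0.0051, and for S42A minus parental to 0.078, against -0.0050. Quantile normalization gave medians of 0.058 and 0.038 for wild-type Twist1 against Tw1KD and parental cells, and 17 higher and 17 lower for S42D against parental cells. Cyclic loess gave 23 lower and a median of 0.033 for wild-type Twist1 against Tw1KD, and 0.0084 against parental cells. Array weights gave a median of 0.037 for Tw1KD against parental, 23 lower and 0.030 for wild-type Twist1 against Tw1KD, and 14 lower for S42A against Tw1KD. With only the 2 lines in the fit, 12 genes were lower in Tw1KD than in parental cells. The causes were not tested.

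Without 1 array, the wild-type Twist1 minus Tw1KD median ran from 0.036 (without Tw1KD replicate 2) to 0.10 (0.057 without wild-type Twist1 replicate 2). The higher count for S42D against S42A ran from 3 (without S42D replicate 2, S42A replicate 1 or S42A replicate 2) to 5, and the higher count for S42A against Tw1KD from 48 to 54. The replicate block gave 52 higher and 8 lower for S42A against Tw1KD cells and 5 and 48 for S42D against S42A. Replicate numbers did not pair the arrays across the lines as a whole. Deviations of same-numbered arrays correlated at -0.39 to 0.42 (median -0.038, 7 of 30 over 0.1), and 6 of 15 arrays correlated best with their own number. Between parental and Tw1KD cells the same-numbered values were 0.015, 0.39 and 0.42. For Tw1KD against parental cells the replicate block gave 12 higher and 19 lower. Of 1020 values for named genes, 6 lost their call, all of them Cox7a2l in S42D minus S42A: 0.089 with centring, 0.18 with the mean of probe sets and 0.14 to 0.16 without single arrays. Dim isoforms and bright subunits near the array maximum limit what a difference can show.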

Other observations

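Mitochondrial and metabolic genes outside the respiratory chain were read from lists. Of 77 mitochondrial ribosomal proteins 34 rose and 19 fell in S42A against Tw1KD cells (median 0.14), Mrpl47 by 1.09 ± 0.11, while Mrpl52 had -0.73 ± 0.061. In the wild-type Twist1 line 40 of them rose and 13 fell against Tw1KD cells (median 0.20), beside 23.5% and 24.5% of all genes. In S42D against S42A 42 fell and 7 rose (19.1% and 17.1% of all genes), Mrps22 with -0.75 ± 0.079. Of 25 genes with Timm or Tomm symbols, listed as import genes, 14 rose and 3 fell in S42A against Tw1KD cells (median 0.24). The 25 include Timmdc1, a complex I assembly factor that is also counted among the 41 assembly factors. Tomm40, the channel of the outer membrane, rose by 0.64 ± 0.045 in S42A against Tw1KD cells. The share of all genes called in that comparison was 22.8% higher and 19.7% lower.

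Of 18 glycolysis genes 10 rose and 3 fell in S42A against Tw1KD cells (median 0.17). Pfkp, a phosphofructokinase, rose by 0.71 ± 0.041 and Pdk2, a kinase that restrains pyruvate dehydrogenase, by 0.97 ± 0.053, and Ldhb, a lactate dehydrogenase, had -1.31 ± 0.071. In S42D against S42A 13 of the 18 fell and 1 rose, beside 19.1% lower and 17.1% higher among all genes. Of 21 regulators of mitochondrial genes 5 rose (23.8%) and 7 fell (33.3%) in S42A against Tw1KD cells, the rises being near the 22.8% of all genes and the falls beside 19.7%. Ppargc1b, which encodes PGC-1β, read 8.64, 8.60 and 8.56 in S42D cells, 8.44, 8.47 and 8.42 in S42A cells, 9.17, 9.16 and 9.07 in wild-type Twist1 cells, 8.20, 8.25 and 8.24 in Tw1KD cells and 7.74, 7.73 and 7.81 in parental cells. It was highest in the wild-type Twist1 line without overlap, unlike Ppargc1a. Myc had -0.71 ± 0.043 in S42A against Tw1KD cells, and Gabpa, the DNA-binding ETS subunit of GABP, was higher in S42D than in S42A by 0.69 ± 0.054.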
